A study of Homo sapiens with 12 samples.

Results

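The mitochondrial respiratory chain genes are the nuclear genes for complexes I to V of oxidative phosphorylation, here taken by symbol: those starting with NDUF, UQCR, COX4 to COX8 or ATP5, with SDHA, SDHC, SDHD and COXFA4. Of 94 such symbols in the array's annotation, 83 were detected (detection p under 0.01 on every array of 1 group or more), out of 10532 genes tested in all. The brightest such probe stood for each gene. The 83 genes comprised 32 subunits of complex I, 8 NDUFAF assembly factors of complex I, 3 subunits of complex II, 9 genes of complex III, 13 of complex IV, 17 of complex V and ATP5IF1, an inhibitor of complex V.

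All samples were the 16HBE line, immortalised human bronchial epithelial cells, stably infected with the retroviral vector pQCXIP. GSK cells carried the empty vector and received the MEK inhibitor GSK1120212 at 500 nM for 4 days. ERKi cells carried the empty vector and received the ERK inhibitor SCH772984 at 1 µM for 4 days. DN_Ras cells carried pQCXIP with dominant-negative Ras (N17), for which the labels give no solvent and no treatment time. Control cells carried the empty vector and received DMSO for 4 days. Each group had 3 Illumina bead arrays, from 3 independent experiments with 1 sample of each group. No label says that the replicate number marks the experiment, so the main fit has no experiment block. Its p-values reflect how much the experiments on this line varied. Whether DN_Ras cells were 1 clone or a pool is not given in the sources used here. The comparisons ask whether respiratory chain transcripts moved when the Ras, MEK and ERK cascade was blocked at each of its levels.

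Complexes I to IV pass electrons from NADH and succinate to oxygen and, except for complex II, pump protons across the inner mitochondrial membrane. Complex V, the ATP synthase, uses the return flow of protons to make ATP. Complex I is the entry point for NADH, complex II (succinate dehydrogenase) is also an enzyme of the citric acid cycle, complex III hands electrons to cytochrome c, and complex IV (cytochrome c oxidase) reduces oxygen. Most subunits are encoded in the nucleus and imported. Subunits encoded by mitochondrial DNA were not analysed here, and neither was SDHB.

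Of the airway epithelial genes listed, 7 of 7 on the array were detected in every group, which goes with epithelial cells but does not identify the line. Their summed intensity, as deposited and not normalized, was 10113 to 12435 in GSK, 15317 to 16474 in ERKi and 10841 to 14281 in DN_Ras cells, against 14958 to 16362 in Control cells. Of 5 leukocyte genes, CD14 and CD68 were detected on all arrays of every group and PTPRC, CD3D and LYZ on no array, with summed intensities of 577 to 689 in GSK, 640 to 757 in ERKi and 599 to 617 in DN_Ras cells, against 633 to 681 in Control cells. Of 6 fibroblast genes, COL1A1 was detected on all arrays of every group and LUM on all GSK arrays, while COL3A1, DCN and PDGFRA were detected on no array. The fibroblast sums were 543 to 643 in GSK, 588 to 597 in ERKi and 510 to 572 in DN_Ras cells, against 506 to 554 in Control cells. Of 5 endothelial genes, 0 were detected on all arrays of any group, PECAM1, CDH5, VWF and KDR being on none, with sums of 408 to 445 in GSK, 436 to 455 in ERKi and 403 to 440 in DN_Ras cells, against 434 to 447 in Control cells. The part of any of these lists in the results was not tested. The third DN_Ras array differed most from its own group: 85 genes lay 2-fold or more outside the other DN_Ras arrays, while the highest such count for another array was 22. None of the 83 respiratory chain genes was among the genes so displaced on any array. Between 16825 and 18295 of 47322 probes were detected per array, and the median probe value rested on 21 or 22 beads.

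Of the respiratory chain genes, 81 were detected on all 12 arrays. NDUFB1, a small subunit of complex I, was detected on 11 arrays. COX6B2, the testis isoform of a complex IV subunit, was detected on 5 arrays and passed the detection rule only through ERKi cells, where it was highest. The 11 genes that did not pass were led by the tissue-restricted complex IV isoforms COX4I2, COX6A2, COX7A1, COX7B2 and COX8C, each detected on 0 arrays. ATP5MK, NDUFA5, NDUFS6 and the antisense gene NDUFB2-AS1 were also detected on 0 arrays. NDUFB4 was detected on 1 array. NDUFC2 was detected on 2 GSK, 0 ERKi and 2 DN_Ras arrays, against 2 Control arrays. UQCRBP1 and ATP5F1EP2 are pseudogenes and UQCRHL is a near copy of UQCRH, so their probes may also have bound the parent transcripts.

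Few respiratory chain transcripts moved. In GSK cells 1 of the 83 genes was higher and 0 were lower than in Control cells at a limma adjusted p under 0.05, against 7.11% of all genes tested called higher and 8.86% called lower. In ERKi cells 1 was higher (COX6B2, which had passed the detection rule only through ERKi cells) and 6 were lower than in Control cells, where the background was 5.92% higher and 5.48% lower. In DN_Ras cells 0 were higher and 1 was lower than in Control cells, with a background of 5.81% higher and 6.45% lower. The 6 lower genes in ERKi cells are 7.23% of the 83, near the background, whereas the shares in the other comparisons with Control lay below it. At an unadjusted p under 0.05, 14 genes passed in either direction in GSK, 17 in ERKi and 12 in DN_Ras cells against Control cells, beside 29.2%, 26.4% and 27.5% of all genes in the same order. An F-test over the 4 groups called 11 of the 83 genes, beside 25.5% of all genes. Both the 17 genes in ERKi cells and the 11 by the F-test include COX6B2.

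The intervals of the differences were narrow for most of these genes. For 75 of the 83 genes in GSK cells, 66 in ERKi cells and 76 in DN_Ras cells, the 95% interval of the difference from Control cells lay within 1.5-fold in both directions. The same held for 65.9%, 68% and 67.7% of all genes tested. Within 2-fold the numbers were 83, 82 and 83, beside 92.2%, 94.9% and 94.3% of all genes, the exception being COX6B2 in ERKi cells. The median difference of the 83 genes from Control cells was 0.02 in GSK, −0.06 in ERKi and 0.01 in DN_Ras cells on the log2 scale, beside 0.01, −0.01 and 0.01 over all genes. The SE of a difference between groups ranged from 0.10 to 0.18 over the 83 genes, with a median of 0.12. In every value from here on, a level is a log2 normalized intensity on 1 array, and a change is a difference of log2 means ± SE from limma with 3 arrays per group.

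**Figure D1:**
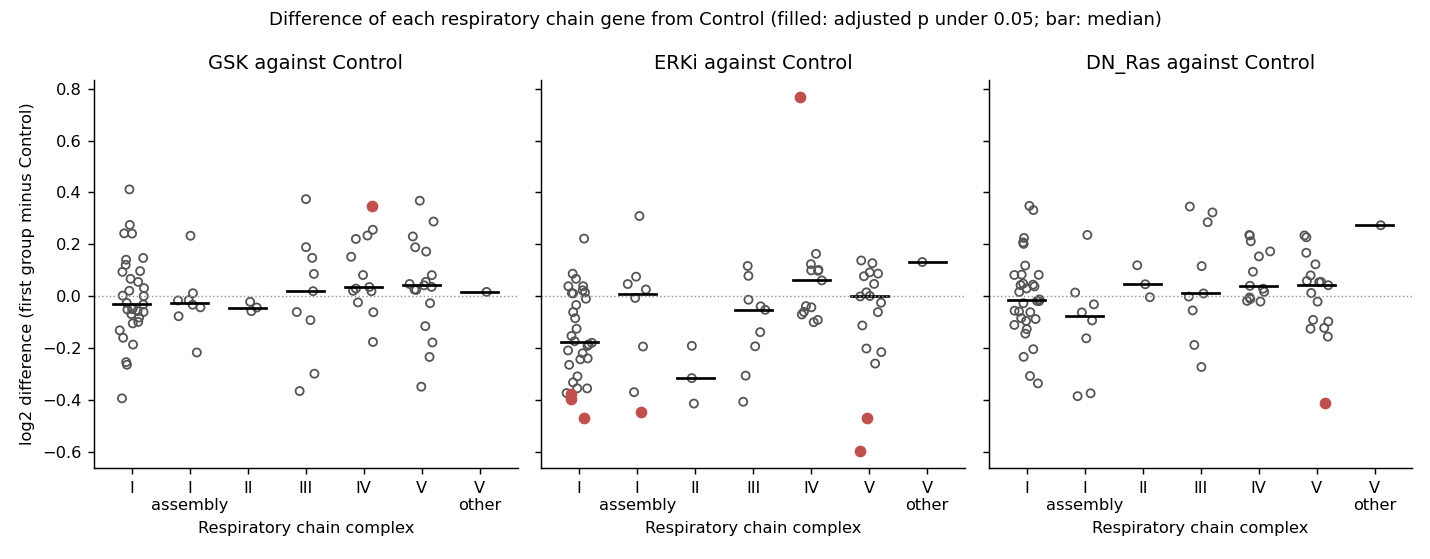
Log2 difference of each of the 83 respiratory chain genes from Control, by complex, for GSK, ERKi and DN_Ras cells (left to right). Circles are genes, filled red where the limma adjusted p was under 0.05, and bars are medians; the 32 complex I genes have a median of −0.18 in ERKi cells, against −0.03 in GSK and −0.01 in DN_Ras cells.

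In ERKi cells 62.7% of the 83 genes had a mean below Control, beside 51.5% of all genes tested. Of 32 complex I subunits, 23 (71.9%) were below Control in ERKi cells, with a median difference of −0.18, and 7 of 9 complex III genes (77.8%), with a median of −0.05. All 3 complex II subunits were below, with a median of −0.31, of which SDHC was near 0 by its second probe, as given with its levels. The medians were 0.06 for complex IV and −0.00 for complex V. The complex IV median takes in COX6B2, which passed the detection rule only through ERKi cells, so it is not read as a rise. In GSK cells the same medians were −0.03 for complex I and −0.04 for complex II, and in DN_Ras cells −0.01 and 0.05. For complexes III, IV and V they were 0.02, 0.04 and 0.04 in GSK cells and 0.01, 0.04 and 0.04 in DN_Ras cells. Above Control in GSK cells were 76.9% of complex IV and 70.6% of complex V genes, beside 51% of all genes. In DN_Ras cells these shares were 69.2% and 58.8%, beside 51.7%. All 3 ERKi arrays lay below all 3 Control arrays for 20 of the 83 genes, 10 of them complex I subunits, beside 17.4% of all genes tested. The reverse, all ERKi arrays above all Control arrays, was met by 3 genes, beside 16.3% of all genes. COX6B2, which passed the detection rule only through ERKi cells, was 1 of these 3.

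**Figure D2:**
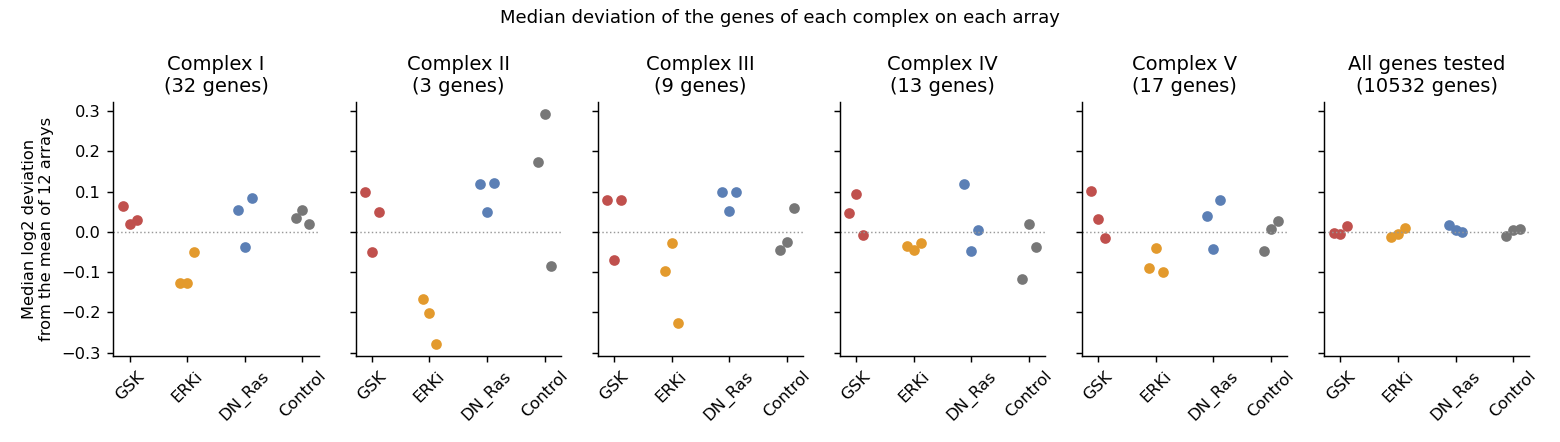
Median log2 deviation of the genes of each complex from their mean over the 12 arrays, 1 point per array, for GSK, ERKi, DN_Ras and Control, with all genes tested at the right. The 3 ERKi arrays lie lowest for complex I, at −0.13, −0.13 and −0.05, and for complex II, at −0.17, −0.20 and −0.28.

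Among complex I subunits, NDUFA7, an accessory subunit, had levels of 8.36, 8.42 and 8.43 in ERKi cells, against 8.74, 8.88 and 8.78 in Control cells. The groups did not overlap, and GSK and DN_Ras levels, from 8.52 to 8.65, lay between them. NDUFA7 fell by 0.39 ± 0.10 in ERKi cells (limma adjusted p = 0.0206). NDUFA13, an accessory subunit also known as GRIM-19, had levels of 9.82, 9.90 and 10.15 in ERKi cells, against 10.36, 10.31 and 10.34 in Control cells. The Control arrays lay close together and above every ERKi array, and the change was −0.38 ± 0.12 (limma adjusted p = 0.0470). NDUFV3, a subunit of the NADH-oxidising module, had levels of 5.88, 5.79 and 5.76 in ERKi cells, against 6.35, 6.35 and 6.13 in Control cells. It was lower on all 3 ERKi arrays, by −0.47 ± 0.14 (limma adjusted p = 0.0422). In GSK cells NDUFV3 had levels of 5.88, 5.87 and 5.90, also below every Control array, and its change of −0.39 ± 0.14 missed the threshold (limma adjusted p = 0.0697). A dimmer second probe of NDUFV3 gave −0.18 ± 0.17 in ERKi cells.

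NDUFA6, an accessory subunit of the LYR protein family, had the largest rise of a complex I subunit in GSK cells, 0.41 ± 0.17, and in ERKi cells, 0.22 ± 0.17, and passed in neither (limma adjusted p = 0.127 and 0.450). In DN_Ras cells the extremes of complex I were NDUFS1, the largest iron-sulfur subunit, at 0.35 ± 0.13 and NDUFA10 at −0.33 ± 0.12, again short of the threshold (limma adjusted p = 0.0944 and 0.0699). The calls of NDUFA7, NDUFA13 and NDUFV3 were kept in 8, 4 and 3 of the 12 fits that left out 1 array. NDUFA7 lost its call without ERKi replicate 1 or 2 or Control replicate 2 or 3, NDUFA13 without ERKi replicate 1 or 2 or any GSK or Control array, and NDUFV3 without any ERKi, GSK or Control array.

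Of the 8 NDUFAF assembly factors, which help to build complex I without remaining in it, NDUFAF4 passed. Its levels were 6.53, 6.70 and 6.41 in ERKi cells, against 7.06, 6.98 and 6.94 in Control cells. Every ERKi array was below every array of the other groups, whose levels ran from 6.82 to 7.10. The change was −0.45 ± 0.12 (limma adjusted p = 0.0217). A second probe of NDUFAF4 fell in ERKi cells too, by 0.52 ± 0.12 (limma adjusted p = 0.0161 over probes), and was also lower in DN_Ras cells, by −0.43 ± 0.12 (limma adjusted p = 0.0391 over probes), where the brightest probe gave −0.06 ± 0.12. The call of the brightest probe was kept in 7 of 12 fits that left out 1 array, and lost without ERKi replicate 1 or 3 or any Control array. The other extremes were NDUFAF2, with −0.22 ± 0.14 in GSK and −0.38 ± 0.14 in DN_Ras cells, and NDUFAF6, with 0.23 ± 0.17 in GSK, 0.31 ± 0.17 in ERKi and 0.24 ± 0.17 in DN_Ras cells, none of which passed.

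Complex II was measured through SDHA, the flavin subunit that oxidises succinate, and SDHC and SDHD, its membrane anchors. SDHA had levels of 9.24, 9.17 and 9.23 in ERKi cells, against 9.62, 9.46 and 9.49 in Control cells. SDHC had 8.77, 8.74 and 8.32 in ERKi cells, against 9.11, 9.23 and 8.73 in Control cells. SDHD had 8.939, 9.111 and 8.812 in ERKi cells, against 9.033, 9.394 and 9.005 in Control cells. SDHA alone separated the groups. The changes were −0.31 ± 0.11 for SDHA, −0.41 ± 0.15 for SDHC and −0.19 ± 0.13 for SDHD, and none passed (limma adjusted p = 0.0774, 0.0946 and 0.363). A second probe gave −0.43 ± 0.16 for SDHA and −0.06 ± 0.13 for SDHC in ERKi cells, so the SDHC change was not seen by both of its probes. In GSK cells the 3 changes lay between −0.06 and −0.02, and in DN_Ras cells between −0.00 and 0.12, by the brightest probes. The second probes gave 0.09 ± 0.16 for SDHA and 0.33 ± 0.13 for SDHC in GSK cells. In DN_Ras cells they gave 0.31 ± 0.16 and 0.27 ± 0.13 in the same order, and none passed. The 95% interval of the SDHA change was −0.29 to 0.18 in GSK and −0.19 to 0.28 in DN_Ras cells.

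No gene of complex III passed against Control. UQCR10, a small subunit, came nearest, with levels of 8.44, 8.37 and 8.31 in ERKi cells and 8.65, 8.39 and 8.21 in GSK cells, against 8.76, 8.84 and 8.74 in Control cells. Both inhibited groups lay wholly below Control, with changes of −0.36 ± 0.13 in GSK and −0.41 ± 0.13 in ERKi cells (limma adjusted p = 0.0663 and 0.0526). Its other probes did not share these values: one gave 0.27 ± 0.20 in GSK and 0.02 ± 0.20 in ERKi cells, and another 0.27 ± 0.17 in GSK and −0.09 ± 0.17 in ERKi cells. UQCRB, which sits near the ubiquinone site, had 9.57, 9.84 and 9.57 in GSK cells, against 9.22, 9.33 and 9.29 in Control cells. The groups did not overlap, and the change was 0.37 ± 0.13 (limma adjusted p = 0.0614). A second probe of UQCRB gave 0.07 ± 0.14 in GSK cells. In ERKi cells UQCRB gave 0.12 ± 0.13. Without the third DN_Ras array, which enters through the shared spread, UQCR10 passed in GSK and ERKi cells and UQCRB in GSK cells (limma adjusted p = 0.0461, 0.0351 and 0.0496). In DN_Ras cells the extremes were UQCR11 at 0.35 ± 0.14 and the core subunit UQCRC2 at −0.27 ± 0.13, neither past the threshold.

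Complex IV held the call in GSK cells. COXFA4, a subunit first assigned to complex I, had levels of 11.43, 11.44 and 11.57 in GSK cells, 11.17, 11.25 and 11.27 in ERKi cells and 11.30, 11.27 and 11.46 in DN_Ras cells, against 11.18, 11.03 and 11.18 in Control cells. GSK and DN_Ras arrays all lay above the Control arrays. COXFA4 rose by 0.35 ± 0.11 in GSK cells (limma adjusted p = 0.0363). That call was kept in 6 of the 12 fits that left out 1 array, and lost without any 1 of the GSK or Control arrays and under median scaling.

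COX6B2 had levels of 5.48, 5.44 and 5.05 in ERKi cells, against 4.20, 4.91 and 4.56 in Control cells. All 3 ERKi arrays were above all others, the DN_Ras levels being 4.99, 4.69 and 4.46. It was detected on 3 ERKi and 1 DN_Ras arrays, against 1 Control array. As COX6B2 entered only through the group where it was highest, it had to differ there, so its tests are not given and its levels are a description. COX6B1, the isoform of most tissues, gave 0.26 ± 0.11 in GSK, 0.10 ± 0.11 in ERKi and 0.23 ± 0.11 in DN_Ras cells and did not pass.

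The other isoform pairs of complex IV were represented by their general members. COX4I1, COX6A1, COX7A2 and the supercomplex factor COX7A2L were measured, while COX4I2, COX6A2 and COX7A1 were detected on 0 arrays of any group. Their differences from Control were 0.03, 0.02, 0.08 and −0.02 in GSK cells, in the order just given. In ERKi cells they were −0.09, 0.16, −0.06 and −0.07, and in DN_Ras cells 0.03, 0.17, 0.02 and 0.09. None passed, and none of the 13 complex IV genes was lower in any comparison with Control at the threshold. COX5A was the lowest of complex IV in ERKi and DN_Ras cells, at −0.10 ± 0.13 and −0.02 ± 0.13, and the highest in DN_Ras cells was COX7B, at 0.24 ± 0.12.

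Complex V held the largest fall. ATP5MC1, which with ATP5MC2 and ATP5MC3 encodes the c subunit of the rotor ring, had levels of 10.63, 10.22 and 10.25 in GSK cells, 10.11, 10.15 and 10.10 in ERKi cells and 10.21, 10.22 and 10.48 in DN_Ras cells, against 10.73, 10.71 and 10.70 in Control cells. Every array of an inhibited group lay below every Control array. The change was −0.59 ± 0.13 in ERKi cells (limma adjusted p = 0.00663) and −0.41 ± 0.13 in DN_Ras cells (limma adjusted p = 0.0456), and −0.35 ± 0.13 in GSK cells, which did not pass (limma adjusted p = 0.0746). A second, dimmer probe of ATP5MC1 gave −0.33 ± 0.14 in ERKi cells and, with the opposite sign, 0.36 ± 0.14 in DN_Ras cells. The ERKi call was kept in all 12 fits that left out 1 array, and the DN_Ras call in 2 of them, among them the fit without the third DN_Ras array. Of the 3 c-subunit genes, ATP5MC2 gave 0.08 ± 0.13 in GSK, −0.26 ± 0.13 in ERKi and −0.15 ± 0.13 in DN_Ras cells. A dimmer second probe of ATP5MC2 gave −0.25 ± 0.14, −0.39 ± 0.14 and −0.22 ± 0.14 in the same order, and did not pass. ATP5MC3 gave 0.37 ± 0.16, 0.14 ± 0.16 and 0.23 ± 0.16, again in that order. The 3 genes encode the same mature protein.

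ATP5F1D, the delta subunit of the central stalk, had levels of 9.996, 9.941 and 9.497 in ERKi cells, against 10.279, 10.314 and 10.239 in Control cells. The third ERKi array was the lowest, and all 3 lay below Control. The change was −0.47 ± 0.14 (limma adjusted p = 0.0485), and the call was kept in 3 of 12 fits that left out 1 array: those without GSK replicate 3, ERKi replicate 1 or DN_Ras replicate 3. A second probe of ATP5F1D gave −0.33 ± 0.16, which did not pass. ATP5IF1, which inhibits ATP hydrolysis by complex V, had levels of 10.44, 10.41 and 10.31 in DN_Ras cells, against 10.07, 10.16 and 10.10 in Control cells. The groups did not overlap, and its change of 0.27 ± 0.10 missed the threshold (limma adjusted p = 0.0981). In GSK and ERKi cells ATP5IF1 gave 0.02 ± 0.10 and 0.13 ± 0.10.

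**Figure D3:**
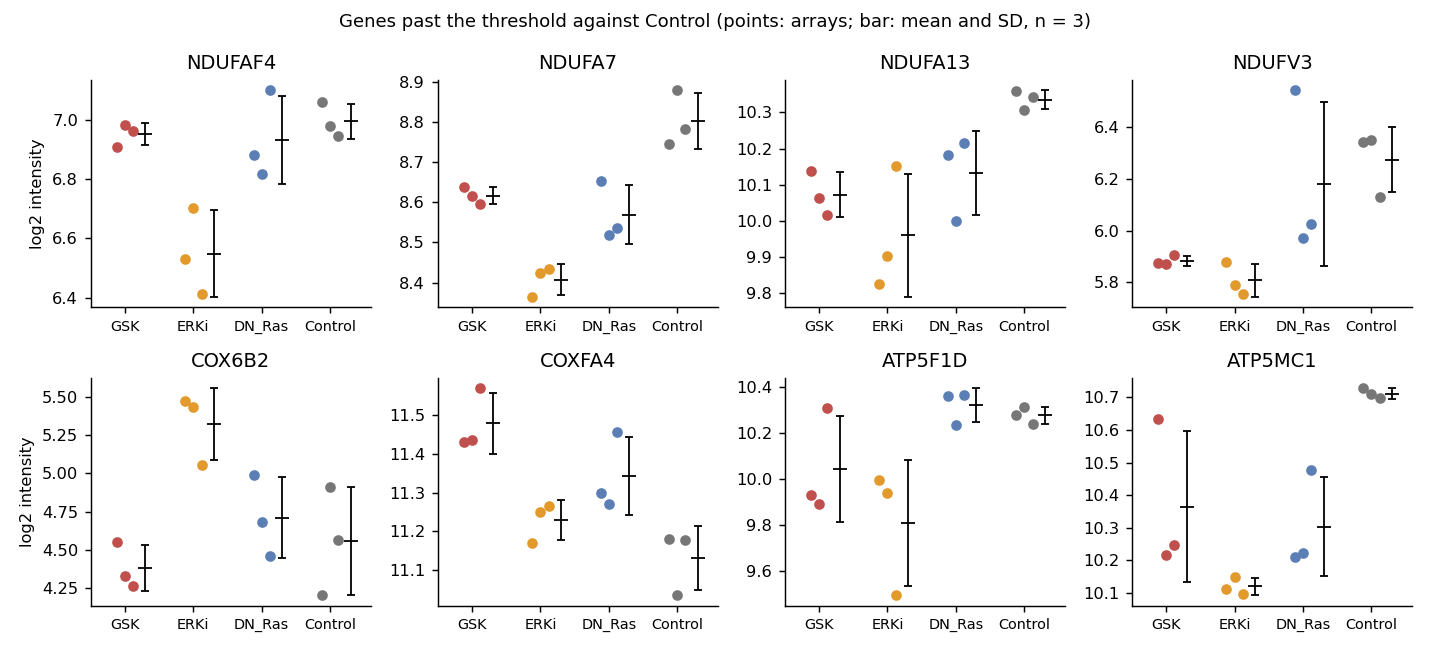
Log2 normalized intensity on each array of the 8 respiratory chain genes past the threshold against Control in at least 1 comparison, in GSK, ERKi, DN_Ras and Control cells. Points are arrays and bars are means ± SD (n = 3); for ATP5MC1 all 9 arrays of the inhibited groups lie below the Control arrays, at 10.10 to 10.63, and for NDUFAF4 the ERKi arrays lie below all others.

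The inhibited groups were also set against each other, which shows where a block at one level differed from a block at another. Between GSK and ERKi cells, 3 genes were higher in GSK cells and 1 (COX6B2) was lower, beside 3.52% and 6.69% of all genes. Between DN_Ras and GSK cells, 1 gene was higher in DN_Ras cells and 0 were lower, beside 2.49% and 1.91%. Between DN_Ras and ERKi cells, 8 were higher in DN_Ras cells and 1 (COX6B2) was lower, beside 4.79% and 6.09%. The 8 are 9.64% of the 83 genes, and 3 calls remained without the third DN_Ras array. The median difference of the 83 genes was 0.12 for GSK against ERKi cells, −0.02 for DN_Ras against GSK and 0.10 for DN_Ras against ERKi, beside 0.01 in each case over all genes. GSK arrays lay wholly above ERKi arrays for 22 of the 83 genes (15.5% of all genes), and DN_Ras arrays wholly above ERKi arrays for 20 (14.2% of all genes). These comparisons share the ERKi arrays with one another and with the comparison against Control, so they do not count as separate evidence on ERKi cells.

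In complex I, NDUFS7, a core iron-sulfur subunit near the ubiquinone site, had levels of 9.03, 9.28 and 9.03 in GSK cells and 9.36, 9.13 and 9.43 in DN_Ras cells, against 8.74, 8.62 and 8.57 in ERKi cells. The ERKi arrays lay below every other array. NDUFS7 was higher by 0.47 ± 0.12 in GSK cells (limma adjusted p = 0.0182) and by 0.66 ± 0.12 in DN_Ras cells (limma adjusted p = 0.00242), each against ERKi cells. NDUFS1 had levels of 5.85, 6.20 and 5.99 in DN_Ras cells, against 5.36, 5.55 and 5.36 in ERKi cells, without overlap. It was higher in DN_Ras cells by 0.59 ± 0.13 (limma adjusted p = 0.0103). NDUFB6, an accessory subunit of the membrane arm, had levels of 10.54, 10.12 and 10.13 in GSK cells, against 9.68, 9.56 and 9.89 in ERKi cells. It was higher in GSK cells by 0.55 ± 0.13 (limma adjusted p = 0.0161), and a second probe gave 0.22 ± 0.14. NDUFB9 was higher by 0.40 ± 0.12 in DN_Ras than in ERKi cells (limma adjusted p = 0.0412). That call was kept in 4 of 12 fits that left out 1 array, and lost without any 1 of the ERKi or DN_Ras arrays. NDUFAF4 was higher than in ERKi cells by 0.40 ± 0.12 in GSK and by 0.38 ± 0.12 in DN_Ras cells (limma adjusted p = 0.0365 and 0.0438). Its second probe gave 0.18 ± 0.12 and 0.09 ± 0.12 in these comparisons and passed in neither, and the call between DN_Ras and ERKi cells was kept in 2 of 12 fits that left out 1 array. Between GSK and ERKi cells, NDUFS7 and NDUFB6 were each called in 9 of 12 fits that left out 1 array and NDUFAF4 in 5. NDUFS7 lost its call without GSK replicate 2 or ERKi replicate 2 or 3, and NDUFB6 without GSK replicate 1 or ERKi replicate 1 or 2.

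Both SDHA and SDHC were higher in DN_Ras than in ERKi cells. SDHA had levels of 9.56, 9.59 and 9.56 in DN_Ras cells and differed by 0.36 ± 0.11 (limma adjusted p = 0.0463). SDHC had 9.27, 8.99 and 9.17 in DN_Ras cells and differed by 0.53 ± 0.15 (limma adjusted p = 0.0364). For SDHA a second probe gave 0.75 ± 0.16 in the same comparison (limma adjusted p = 0.0110 over probes), and for SDHC it gave 0.32 ± 0.13, which did not pass. UQCR11, a small subunit of complex III, had levels of 6.03, 6.43 and 6.56 in DN_Ras cells, against 5.67, 5.74 and 5.68 in GSK cells and 5.76, 5.71 and 5.59 in ERKi cells. The DN_Ras arrays lay above all arrays of both inhibitors. UQCR11 was higher in DN_Ras cells by 0.64 ± 0.14 than in GSK cells and by 0.65 ± 0.14 than in ERKi cells (limma adjusted p = 0.0143 and 0.00732). ATP5F1D was higher by 0.51 ± 0.14 in DN_Ras than in ERKi cells (limma adjusted p = 0.0340), where its second probe gave 0.38 ± 0.16 and did not pass. The calls of SDHA, SDHC and ATP5F1D were kept in 2, 8 and 8 of 12 fits that left out 1 array, and that of UQCR11 against GSK cells in 9, being lost without GSK replicate 2 or 3 or DN_Ras replicate 2.

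COX6B2 was detected on no GSK array, and its mean level was 4.38 in GSK cells, against 5.32 in ERKi cells. Its calls between GSK or DN_Ras and ERKi cells rest on the group that let it through the detection rule and are not read. Of the 9 calls between DN_Ras and ERKi cells, NDUFS1, NDUFS7 and UQCR11 were kept in all 12 fits that left out 1 array. These 3 were the ones that passed without the third DN_Ras array. Each had only 1 probe, so no second probe could check it. NDUFS1 and UQCR11 were among the dimmer genes, with mean levels of 5.42 and 5.69 in ERKi cells, though detected on all arrays of every group. Median scaling, with every array set to 1 median instead of 1 set of quantiles, moved the median of all genes to −0.24 for GSK against ERKi cells and to −0.23 for DN_Ras against ERKi cells, and COX6B2 was then the only gene called in either comparison. Relative to those shifts the medians of the 83 genes were 0.20 and 0.13.

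**Figure D4:**
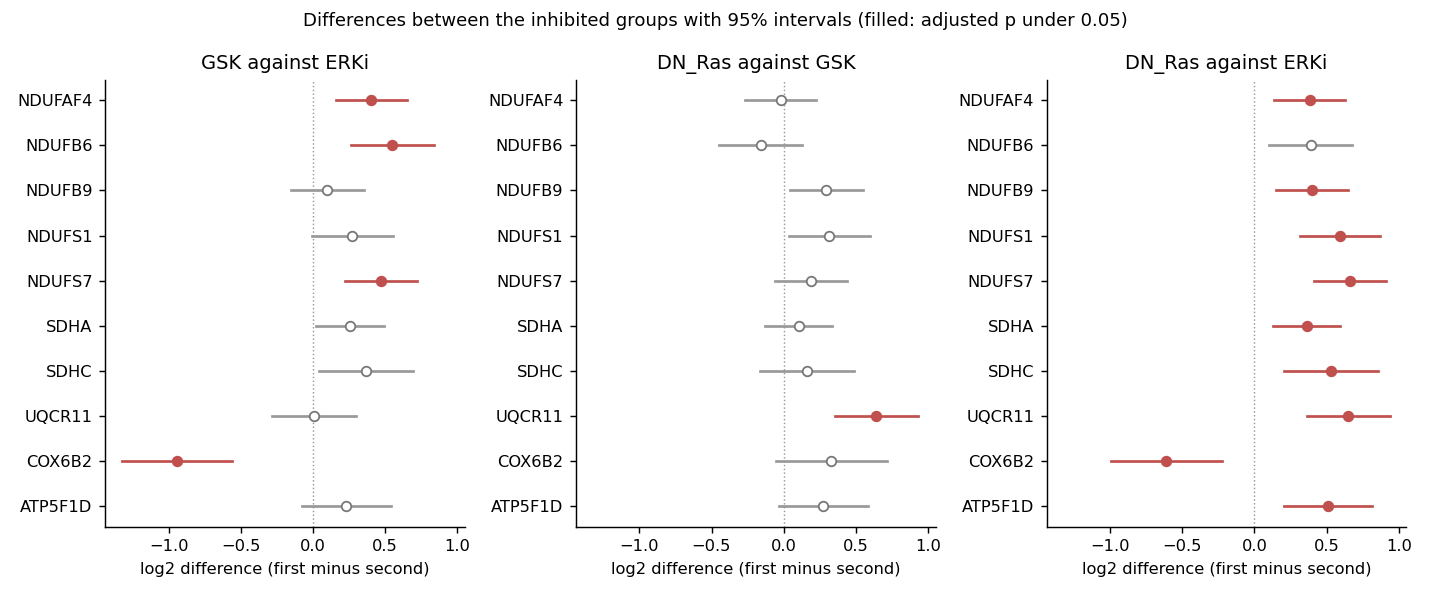
Log2 differences with 95% intervals between inhibited groups (first minus second) for the 10 respiratory chain genes called in at least 1 of these comparisons, filled where the limma adjusted p was under 0.05. UQCR11 is higher in DN_Ras cells than in both GSK and ERKi cells, and NDUFS7 is lower in ERKi cells than in both other groups.

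The same scaling bears on the comparisons with Control. It left the median of all genes at −0.12 in GSK, 0.12 in ERKi and −0.10 in DN_Ras cells, and the medians of the 83 genes, relative to these, at −0.01, −0.17 and −0.03. The genes called were then 0 in GSK cells, 1 in ERKi cells (COX6B2, higher) and 1 in DN_Ras cells (ATP5MC1, lower). Beside these, 10.8%, 7.09% and 6.82% of all genes were called.

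Genes around the chain were counted from lists by function. Each count against Control stands beside the shares of all genes called, which were 7.11% higher and 8.86% lower in GSK, 5.92% and 5.48% in ERKi and 5.81% and 6.45% in DN_Ras cells. COXFA4L3 is a paralog of COXFA4 that can take its place in complex IV, and its transcript is the host of a microRNA, miR-147b, known to act on COXFA4 mRNA. COXFA4L3 had levels of 10.88, 10.16 and 10.16 in GSK cells, 12.02, 11.80 and 11.91 in ERKi cells and 12.12, 11.66 and 11.04 in DN_Ras cells, against 11.81, 11.88 and 11.65 in Control cells. All GSK arrays lay below all others. COXFA4L3 fell by 1.38 ± 0.23 in GSK cells (limma adjusted p = 0.000582), gave 0.13 ± 0.23 in ERKi and −0.17 ± 0.23 in DN_Ras cells, and was lower in GSK than in ERKi cells by −1.51 ± 0.23 (limma adjusted p = 0.000421). It was higher in DN_Ras than in GSK cells by 1.21 ± 0.23 (limma adjusted p = 0.00704). Whether COXFA4L3 or its microRNA had a part in the COXFA4 change was not tested. The microRNA itself was not analysed here; its mature sequence, from RefSeq (GRCh38.p14, chr15:45433098-45433118, plus strand), is shown for its seed, bases 2 to 8, in capitals.
hsa-miR-147b-3p: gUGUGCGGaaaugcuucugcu

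**Figure D5:**
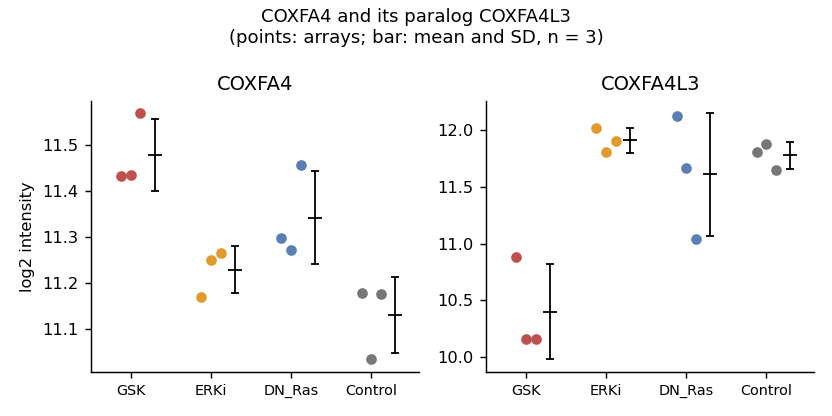
Log2 normalized intensity of COXFA4 and of COXFA4L3 on each array in GSK, ERKi, DN_Ras and Control cells; points are arrays and bars are means ± SD (n = 3). The GSK arrays are the highest group mean for COXFA4 and the lowest for COXFA4L3, and levels of the 2 probes are not comparable with each other.

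Of 8 measured genes for cytochrome c and other routes of electron entry and exit, 0 rose and 1 fell in GSK cells (COXFA4L3), 0 rose and 1 fell in ERKi cells (ETFB, of the electron transfer flavoprotein, −0.37 ± 0.11), and none passed in DN_Ras cells. Of 14 further complex I assembly genes, DMAC1, a factor for the distal membrane arm, fell in GSK cells by 0.47 ± 0.14 and in ERKi cells by 0.72 ± 0.14 (limma adjusted p = 0.0304 and 0.00369), and none passed in DN_Ras cells. Of 10 assembly genes of complexes II and III, SDHAF4 fell in GSK and ERKi cells by 0.52 ± 0.12 and 0.45 ± 0.12, and UQCC2 in ERKi cells by 0.70 ± 0.13. None passed in DN_Ras cells.

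Of 21 measured assembly genes of complex IV, 3 rose and 3 fell in GSK cells, 1 rose and 1 fell in ERKi cells, and 2 rose and 0 fell in DN_Ras cells, and the others did not pass. Their median differences were −0.02 in GSK, −0.05 in ERKi and −0.05 in DN_Ras cells. COX20, which chaperones a mitochondrially encoded subunit, rose by 0.62 ± 0.14 in GSK and by 0.48 ± 0.14 in DN_Ras cells. SCO2, a copper chaperone, fell by 0.45 ± 0.12 in GSK cells, and COA6, which also serves copper delivery, fell by 0.42 ± 0.11 in GSK and 0.40 ± 0.11 in ERKi cells. COA5 rose by 0.42 ± 0.12 in GSK cells, COX19 by 0.62 ± 0.16 in ERKi cells and PET100 by 0.48 ± 0.12 in DN_Ras cells. Of 7 genes for complex V assembly and ATP export, none passed in any comparison with Control.

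Upstream of the chain, 19 genes of pyruvate dehydrogenase and the citric acid cycle held 0 calls in GSK and in DN_Ras cells and 2 in ERKi cells. There, pyruvate carboxylase (PC) fell by 0.72 ± 0.17 and SUCLG2, of succinyl-CoA synthetase, by 0.48 ± 0.13. Among 19 measured regulators of mitochondrial biogenesis and of mitochondrial DNA expression, 1 rose and 3 fell in GSK cells, 0 rose and 2 fell in ERKi cells, and 1 rose and 1 fell in DN_Ras cells. MYC, a transcription factor with respiratory chain and ribosomal genes among its known targets, had mean levels of 7.56 ± 0.14 in GSK, 7.39 ± 0.25 in ERKi and 7.41 ± 0.31 in DN_Ras cells, against 8.32 ± 0.25 in Control cells (SD, n = 3 each). It fell by 0.76 ± 0.17, 0.93 ± 0.17 and 0.91 ± 0.17 in that order (limma adjusted p = 0.00695, 0.00280 and 0.00299). GABPA, the DNA-binding subunit of NRF2/GABP, which binds ETS motifs in respiratory chain promoters, rose by 0.51 ± 0.15 both in GSK and in DN_Ras cells and gave no call in ERKi cells. POLRMT, the mitochondrial RNA polymerase, fell by 0.50 ± 0.15 in GSK and in ERKi cells, and ESRRA, a nuclear receptor of oxidative genes, fell by 0.45 ± 0.14 in GSK cells.

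Of 81 mitochondrial ribosomal protein genes, which serve translation of the mitochondrially encoded subunits, 1 rose and 4 fell in GSK cells, 0 rose and 3 fell in ERKi cells, and 0 rose and 1 fell in DN_Ras cells. All 3 counts of genes that fell lie below the share of all genes called lower. Their median differences were −0.08, −0.14 and −0.09 in that order. MRPS2 fell in GSK cells by 0.56 ± 0.12 and in ERKi cells by 0.47 ± 0.12, MRPL32 in GSK cells by 0.59 ± 0.14, MRPL23 in ERKi cells by 0.53 ± 0.11, MRPL36 in ERKi cells by 0.43 ± 0.12, MRPL15 in GSK cells by 0.36 ± 0.11, and MRPS18B in GSK and DN_Ras cells by 0.39 ± 0.11 and 0.40 ± 0.11. Of the genes named from these lists, COXFA4L3, MYC, COX20 and MRPS2 in GSK cells, MYC, DMAC1, UQCC2 and MRPL23 in ERKi cells and MYC in DN_Ras cells kept their calls in all 12 fits that left out 1 array, and the rest lost theirs in at least 1. Under median scaling the calls kept were COXFA4L3, MYC, DMAC1, SDHAF4, COA6, SCO2, POLRMT, ESRRA, MRPS2 and MRPL32 in GSK cells, MYC, DMAC1 and COX19 in ERKi cells and MYC in DN_Ras cells. The other calls named from these lists, COX20, UQCC2 and MRPL23 among them, were lost. In DN_Ras cells COX20, PET100, GABPA and MRPS18B lost their calls without the third DN_Ras array (limma adjusted p = 0.0703, 0.0717, 0.102 and 0.0523). They also lost them without the second DN_Ras array.

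Respiratory chain promoters are known for motifs of ETS factors, NRF1, YY1 and Sp1 and for CCAAT boxes. The 250 bases before the first listed RefSeq start (GRCh38.p14) were searched on both strands for CCGGAAG (ETS), TGCGCA (the NRF1 core), AAGATGG (YY1), CCAAT and GGGCGG (Sp1) in the 69 respiratory chain genes with an entry. The ETS motif was in 23.2% of them, against 16.8% of 8580 genes tested with an entry and 8.82% of all 27305 genes in the table. For the NRF1 core the shares were 18.8%, against 12% and 7.05%, and for YY1 5.8%, against 3.41% and 3.77%. For CCAAT they were 30.4%, against 35.6% and 33%, and for Sp1 52.2%, against 68.5% and 42.3%. At least 1 of the 5 motifs was found in 54 of the 69. ETS and YY1 share letters at their ends, and their matches overlapped in 0 of the 69. These are matches of letters, not sites of binding, and the shares are descriptions.

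The promoters below belong to the genes with the smallest adjusted p in the 6 comparisons. COX6B2 is among them only through a call against ERKi cells that is not read here, so its promoter is a description. The 250 bases run 5′ to 3′ towards the start on the gene's strand, with the motifs in capitals. ATP5MC1 (chr17:48892537-48892786, plus strand) holds 4 CCAAT boxes and none of the others. UQCR11 (chr19:1605463-1605712, minus strand) holds 2 ETS and 3 Sp1 motifs, and NDUFS7 (chr19:1383657-1383906, plus strand) holds 1 NRF1 core and 1 Sp1 motif. COX6B2 (chr19:55354720-55354969, minus strand) holds 2 CCAAT boxes and 1 Sp1 motif, and COXFA4 (chr7:10940154-10940403, minus strand) holds none in this window.
ATP5MC1: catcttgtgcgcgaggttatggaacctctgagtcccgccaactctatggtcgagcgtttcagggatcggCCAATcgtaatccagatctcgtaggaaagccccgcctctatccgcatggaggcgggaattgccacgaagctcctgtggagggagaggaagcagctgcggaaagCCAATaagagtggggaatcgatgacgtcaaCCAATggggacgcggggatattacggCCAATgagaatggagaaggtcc
UQCR11: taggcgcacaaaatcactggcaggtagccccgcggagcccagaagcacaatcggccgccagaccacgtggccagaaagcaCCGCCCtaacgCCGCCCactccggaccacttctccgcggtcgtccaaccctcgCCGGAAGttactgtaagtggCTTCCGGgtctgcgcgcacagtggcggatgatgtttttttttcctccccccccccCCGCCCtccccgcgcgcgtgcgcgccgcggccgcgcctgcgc
NDUFS7: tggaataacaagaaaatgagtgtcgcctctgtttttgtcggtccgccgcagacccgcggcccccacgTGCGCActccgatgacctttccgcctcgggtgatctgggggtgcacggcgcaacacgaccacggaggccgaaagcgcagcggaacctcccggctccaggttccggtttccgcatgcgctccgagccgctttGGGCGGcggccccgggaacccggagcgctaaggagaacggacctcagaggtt
COX6B2: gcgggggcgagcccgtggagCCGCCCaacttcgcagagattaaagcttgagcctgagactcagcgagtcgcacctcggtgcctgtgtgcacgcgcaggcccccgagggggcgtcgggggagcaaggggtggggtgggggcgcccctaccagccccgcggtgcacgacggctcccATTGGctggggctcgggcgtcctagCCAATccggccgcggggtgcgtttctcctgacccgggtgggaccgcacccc
COXFA4: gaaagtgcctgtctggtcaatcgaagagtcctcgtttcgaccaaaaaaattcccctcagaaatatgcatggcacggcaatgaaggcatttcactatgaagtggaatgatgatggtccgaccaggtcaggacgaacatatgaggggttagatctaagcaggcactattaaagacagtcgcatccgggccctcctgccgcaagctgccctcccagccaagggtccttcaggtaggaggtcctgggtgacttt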

How the data were processed

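Per the labels' protocols, biotinylated cRNA from total RNA of 12 samples was run on Illumina bead arrays. The submitters' processing notes name GenomeStudio; its version is not given in the sources used here. One deposited table gives unnormalized intensity (mean over beads) for 47322 probes, with detection p-values. A second deposited table holds the authors' processed intensity values, used as an alternative. Intensities were background-corrected and normalized with limma 3.58.1 in R 4.3.3 (neqc, offset 16: detection p-values set the background, then quantile normalization and log2). Quantile normalization removes a shift common to most genes. Probes with a detection p under 0.01 on all 3 arrays of any group were kept: 17099 probes, of which 13885 had 1 symbol, and the brightest per gene gave 10532 genes. Groups came from the labels. lmFit and eBayes were fitted over 4 group means on all 12 arrays, with Benjamini-Hochberg adjustment over all 10532 genes (threshold 0.05), and checked on simulated data. Names come from the platform annotation given with the series, which can be old.

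The members and gene lists were chosen with earlier results of these data known. The genes named were, for each comparison with Control, up to 8 past the threshold by smallest adjusted p; for each other comparison, up to 4; all complex II subunits; the largest rise and fall of each complex; isoform sets; and up to 4 called genes per list. Genes beyond these (NDUFB9, NDUFAF4, SDHA, SDHC and COX6B2 between DN_Ras and ERKi, and list medians) were added to account for every call. Alternatives were normalization, background, filter, probe choice, the authors' values, array weights, fits on the groups compared, a replicate block and leaving out each array. No slide is given in the files, so no slide block was fitted. 0 columns belonged to other samples. Promoters and the microRNA came from RefSeq tables by gene identifier; 14 members had no entry.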

Additional observations from a re-analysis of the deposited data

How the results depend on the processing

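Median scaling, which aligns arrays on the median of all probes, called 0 respiratory chain genes in GSK against Control and 3 by the F-test. It called 1 in ERKi against Control, 1 in GSK against ERKi and 1 in DN_Ras against ERKi, each of them COX6B2. The cause was not tested. Where COX6B2 was called, it is also in the other counts of this section that involve ERKi cells, and its calls are not read. Median scaling put the members' median at −0.13 for GSK and −0.13 for DN_Ras against Control. For GSK against ERKi it was −0.047, and for DN_Ras against ERKi −0.10. Without background correction the calls were 4 in GSK, 11 in ERKi and 6 in DN_Ras against Control, 2 in DN_Ras against GSK and 18 by the F-test. Array weights gave 6 calls in GSK and 13 in ERKi against Control. Fitting only the groups compared gave 4 in GSK and 0 in DN_Ras against Control, 0 in DN_Ras against GSK and 3 in DN_Ras against ERKi, with fewer arrays behind the spread. The mean of a gene's probes gave 2 in DN_Ras against Control and 2 in DN_Ras against GSK. The second brightest probe, an alternative chosen after seeing the data, gave 4 in ERKi against Control and 2 in DN_Ras against GSK. It turned ATP5MC1 in DN_Ras against Control to 0.36. Apart from median scaling against Control, given above, the counts in this section stand without the share of all genes called. They are therefore not read as results about the respiratory chain genes.

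Of 18 same-numbered pairs across groups, 8 had deviations correlated above 0.1 (range −0.18 to 0.32), and 5 of 12 arrays correlated best with their own number. Only for GSK against ERKi did all 3 pairs exceed 0.1 (0.32, 0.12 and 0.10). With the replicate block that comparison had 4 calls, as without, and lost none. A number that marks the experiment would pair all groups alike, so these correlations do not settle whether the numbers are pairs. With the replicate block, 2 genes were called in GSK against Control and 0 in DN_Ras against Control, beside 1 in each without it, and the other counts stayed within 1.5 times, such as 6 in ERKi against Control. Calls not made with the block were ATP5F1D, NDUFA13 and ETFB in ERKi against Control, ATP5MC1 in DN_Ras against Control, and NDUFAF4 and SDHA in DN_Ras against ERKi.

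Leaving out 1 array at a time gave 0 to 3 calls in GSK against Control, 2 to 9 in ERKi against Control, 0 to 1 in DN_Ras against Control, 2 to 4 in GSK against ERKi, 0 to 1 in DN_Ras against GSK, 3 to 8 in DN_Ras against ERKi and 5 to 11 by the F-test. ERKi against Control fell to 2 calls without ERKi replicate 2 and without Control replicates 1 or 2, and DN_Ras against ERKi to 3 without DN_Ras replicate 3. The members' median for DN_Ras against ERKi ranged from 0.072 to 0.140. Of 1229 recomputed values of called genes, 1228 kept their direction. These genes were picked by passing on the same arrays, so a kept direction was likely beforehand and is only a description. Of 1208 recomputed values of 55 named differences that had not passed, 51 changed sign, none of them past the threshold, and 35 passed in the same direction. 3 arrays per group limit what can be called.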
